A study of Mus musculus with 6 samples.

Results

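The genes examined here are 42 genes of mitosis, from 21883 protein-coding genes with a span in the annotation. They encode 12 kinesins, 7 mitotic kinases and their activators, 7 proteins of condensin and mitotic chromosomes, 5 of cytokinesis, 5 of the anaphase-promoting complex (APC/C) and separase, 3 further spindle proteins, and FoxM1 with 2 Cks proteins. The members were a list of names by function, with no threshold on a measured value, although the list was drawn up with earlier results of these data known. Each was scored in each library by its most enriched ATAC-seq interval within 1000 bp of either end of the gene span (build mm10), at the end with the better mean over the 6 libraries.

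ATAC-seq, in which a transposase inserts adapters into accessible DNA, was applied to mouse urothelium, the lining of the bladder, to ask how loss of Stag2, a cohesin subunit gene, acts on the chromatin of quiescent cells, in a study concerned with the DREAM repressor. There were 3 Stag2-WT and 3 Stag2-KO libraries of batch 1. All mice had received a diet with TMX for 1 week, all samples were taken 1 week after induction, and the cells were peeled urothelial cells sorted as GFP+ and DAPI-, with 50000 viable cells per condition. The labels give neither the allele and Cre driver nor the number of animals per library, and every p-value is relative to the spread among 6 libraries alone.

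Mitosis is run by kinases that build the spindle, by kinesin motors that move and destroy microtubules, by condensin and topoisomerase that compact chromosomes, and by the APC/C, a ubiquitin ligase that ends it. Most of these genes are transcribed late in the cell cycle. In resting cells the DREAM complex binds their promoters through a short element called the CHR and represses them, and in dividing cells MuvB with B-Myb and FoxM1 activates them there. The neighbouring CCAAT box binds the general activator NF-Y.

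CHR and CCAAT letters were more frequent in the promoters of these genes than in all promoters, as a count with no test. RefSeq promoters (GRCm38.p6, whose coordinates are those of mm10), from 250 bases before to 50 after a gene start, were matched for 36 of the 42 genes, in 38 entries. Tpx2, Bora, Smc4, Dlgap5, Foxm1 and Kif20a had no entry. A CHR, searched on both strands as TTTGAA and as its known variants TTTAAA and, less common, TTCGAA, lay within 60 bases before or 50 after the start in 25 of the 38 entries (65.8%), against 9.49% of all 32851 promoters. A CCAAT box (CCAAT, both strands) was in 27 entries (71.1%, against 37.4% of all), and a CHR near the start together with a CCAAT box in 22 (57.9%, against 3.86%). E2F letters (TTCCCGC or its variant TTGGCGC, both strands) were in 9 entries (23.7%, against 6.81%). Both variants of the CHR read the same on either strand, and the E2F variant begins with letters that end a CCAAT box on the other strand, so 1 stretch can hold both. Of 26 other kinesin genes, most of which serve transport and cilia, 20 had a promoter entry, and a CHR lay near the start in 3 of their 24 entries (12.5%). A match is a description of letters and not a binding site. The entries of Kif2c, Kif14 and Cit lay inside the gene spans and over no ranked interval, so their letters are not those of the open ends described here.

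The promoters of 6 genes are printed 5′ to 3′ on the strand of the gene. They were chosen, among genes whose ranks are given below, for holding a CHR or CCAAT box. The presence of these letters was thus fixed by the choice, and none of these genes was called in the comparison of genotypes. Capitals mark CHR and CCAAT matches, the gene start is base 1, and the base before it is base -1.
Espl1 (chr15:102296043-102296342, plus strand): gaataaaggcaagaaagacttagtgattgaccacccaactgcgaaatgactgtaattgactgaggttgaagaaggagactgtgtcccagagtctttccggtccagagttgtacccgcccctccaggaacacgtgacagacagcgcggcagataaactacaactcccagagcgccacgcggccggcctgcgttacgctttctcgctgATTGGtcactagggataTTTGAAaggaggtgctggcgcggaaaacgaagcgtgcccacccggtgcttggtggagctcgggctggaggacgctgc
Kif18b (chr11:102925075-102925374, minus strand): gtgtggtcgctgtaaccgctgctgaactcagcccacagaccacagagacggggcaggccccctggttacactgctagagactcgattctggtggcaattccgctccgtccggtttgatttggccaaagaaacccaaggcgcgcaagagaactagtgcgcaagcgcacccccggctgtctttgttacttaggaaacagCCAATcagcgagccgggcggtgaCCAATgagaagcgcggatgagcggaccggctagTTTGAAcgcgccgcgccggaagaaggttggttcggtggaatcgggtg
Top2a (chr11:99024140-99024439, minus strand): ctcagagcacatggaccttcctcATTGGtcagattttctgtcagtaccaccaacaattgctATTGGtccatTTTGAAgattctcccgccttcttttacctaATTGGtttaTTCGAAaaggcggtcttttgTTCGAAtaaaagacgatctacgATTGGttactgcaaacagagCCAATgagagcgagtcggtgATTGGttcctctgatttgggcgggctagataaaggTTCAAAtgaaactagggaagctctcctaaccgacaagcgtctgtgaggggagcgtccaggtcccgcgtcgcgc
Hmmr (chr11:40733388-40733687, minus strand): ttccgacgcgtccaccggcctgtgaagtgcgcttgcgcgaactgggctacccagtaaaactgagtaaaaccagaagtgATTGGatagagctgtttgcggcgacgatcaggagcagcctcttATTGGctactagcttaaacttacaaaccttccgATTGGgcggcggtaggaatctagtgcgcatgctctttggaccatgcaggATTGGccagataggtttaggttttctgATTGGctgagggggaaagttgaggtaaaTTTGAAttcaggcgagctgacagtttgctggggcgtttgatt
Prc1 (chr7:80294201-80294500, plus strand): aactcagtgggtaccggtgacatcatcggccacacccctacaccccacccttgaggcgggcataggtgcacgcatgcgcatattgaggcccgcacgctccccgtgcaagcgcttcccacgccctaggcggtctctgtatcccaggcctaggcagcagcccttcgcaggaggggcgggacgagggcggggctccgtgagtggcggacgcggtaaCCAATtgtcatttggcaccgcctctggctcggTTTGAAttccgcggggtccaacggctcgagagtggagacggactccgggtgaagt
Smc2 (chr4:52438971-52439270, plus strand): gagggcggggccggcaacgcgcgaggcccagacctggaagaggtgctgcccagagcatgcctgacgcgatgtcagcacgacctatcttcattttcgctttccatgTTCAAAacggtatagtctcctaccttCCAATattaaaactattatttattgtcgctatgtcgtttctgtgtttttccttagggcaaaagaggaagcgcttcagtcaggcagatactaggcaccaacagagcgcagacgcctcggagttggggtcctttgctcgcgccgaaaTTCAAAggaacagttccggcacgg

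In the Espl1 promoter 1 CCAAT box, from base -44 to -40 on the reverse strand, stood before 1 CHR at -27 to -22. Kif18b had CCAAT boxes at -53 to -49 and -30 to -26, and a CHR at 4 to 9. Top2a held 6 CCAAT boxes and 4 CHR matches, of which 1 lay near the start, at -23 to -18. Hmmr held 5 CCAAT boxes and a CHR at 9 to 14. In the Prc1 entry printed, the CHR spanned the start (-5 to 1) with a CCAAT box at -37 to -33, while from the start of the other Prc1 entry they lay at -30 to -25 and -62 to -58. Smc2 had a CHR at 27 to 32 and another at -145 to -140, with its CCAAT box at -119 to -115.

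**Figure D1:**
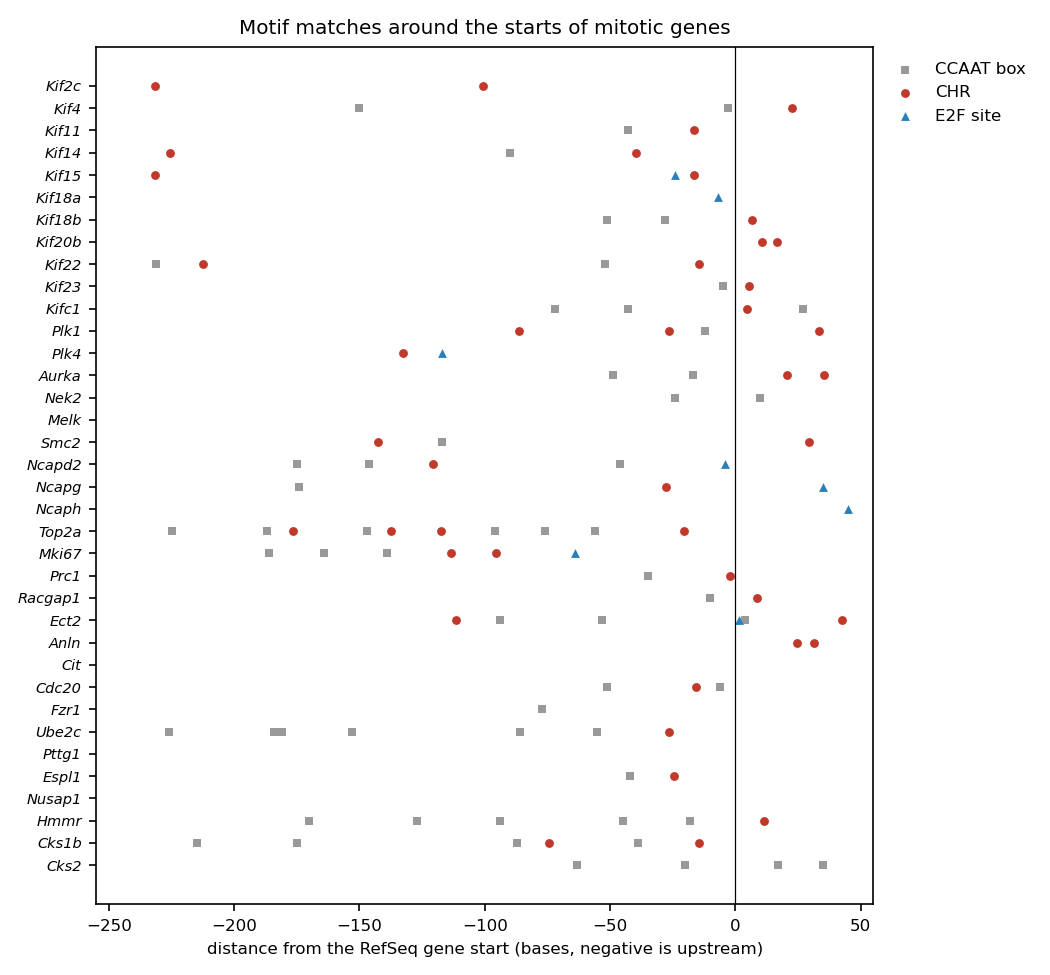
Positions of CHR (red circles), CCAAT box (grey squares) and E2F (blue triangles) matches in bases from the RefSeq gene start, negative upstream, for the 36 genes with a promoter entry (the first entry where there are 2). CHR matches gather near the start, where 23 of the 36 genes have one, and CCAAT boxes mostly lie upstream of it.

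The libraries were compared through ranks. The lists held 149153 to 260462 distinct intervals, with an implied background coverage of 5.89 to 7.98, and the 100000 intervals of highest fold over local background were ranked in each, rank 1 having the highest fold. Gene ends made up 16.1% to 16.2% of the ranked intervals in WT and 16.6% to 16.9% in KO. Of 17 urothelial marker genes, 14 had a ranked interval in all 6 libraries (not Krt18, Grhl3 or Trp63). So did 3 of 8 fibroblast, 4 of 6 smooth muscle, 1 of 6 endothelial and 2 of 9 leukocyte markers. The 2 leukocyte markers were Csf1r (rank 24732 to 56453) and Cd68 (21614 to 48914), while 5 of the 9, with Ptprc, had no ranked interval. Myh11, of smooth muscle, held rank 8868 to 14111. The median rank of the urothelial markers tested was 33216 to 49790 by library. In bulk chromatin, fewer open cells and less open chromatin per cell cannot be told apart.

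The mitotic genes were open in the urothelium of both genotypes. Of the 42, 41 had a ranked interval in all 6 libraries. Their median rank was 7490, 14544 and 8993 in WT replicates 1 to 3 and 8949, 12824 and 8806 in KO replicates 1 to 3. Over all 14286 gene ends tested the median rank was 20575 to 29844. Among the gene ends with an interval in a library, 12 to 18 of the 42 lay in the best 10%. The interval stood at the 5′ end in all 36 genes whose strand was known, and its strongest summit lay a median of 95.0 bp from the start, within 250 bp in 29 of them. In 14 of the 42 the window also held the end of another gene, as for Kif4 (Pdzd11, 117 bp away), Aurka (Cstf1, 241 bp), Prc1 (Rccd1, 146 bp), Nusap1 (Oip5, 207 bp) and Hmmr (Nudcd2, 181 bp), and such an interval belongs to both genes.

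**Figure D2:**
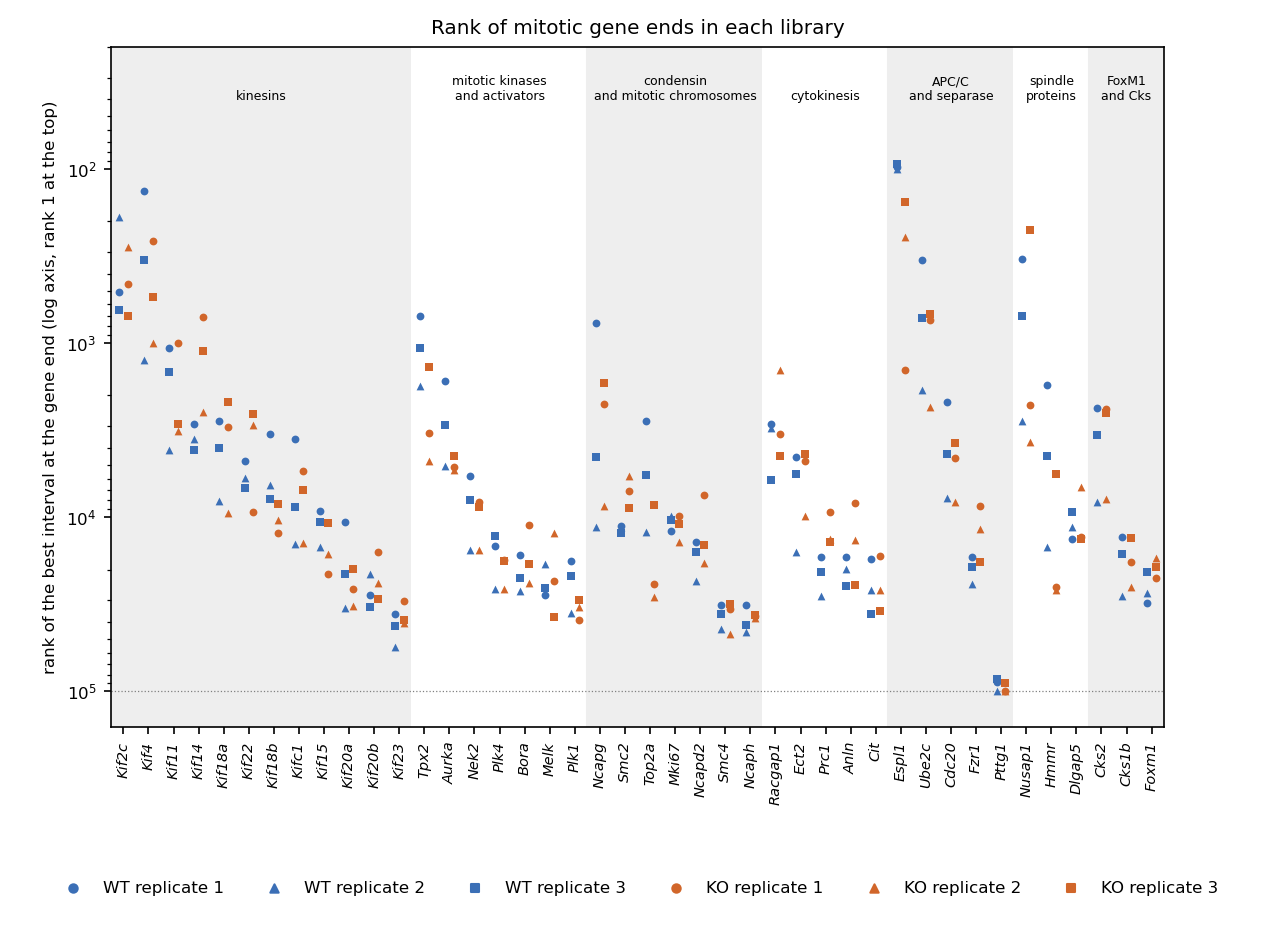
Rank of the best interval at the end of each of the 42 genes (log axis, rank 1 at the top) in the 3 WT (blue) and 3 KO (orange) libraries, by group, and within a group from the best to the worst mean. The dotted line is the rank given where no interval was ranked, 1 past the 100000 of the list. Ranks run from 94 at Espl1 to the dotted line at Pttg1, and blue and orange points overlap in 37 of the 42 genes.

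The most open of the 42 by mean rank were Espl1, the gene of separase, which cuts cohesin at anaphase, Kif2c, a kinesin that depolymerises microtubules, and Kif4, the chromokinesin that works with condensin. Kif2c held rank 510, 190 and 648 in WT and 460, 281 and 697 in KO. Kif4 held rank 134, 1249 and 336 in WT and 261, 1003 and 544 in KO. For both kinesins the ranges of the genotypes overlapped. Kif23, a kinesin of the midbody, and Ncaph, a condensin subunit, were among the 3 least open, Kif23 with 35951, 55925 and 42077 in WT and 30377, 40731 and 38863 in KO, and Ncaph with 31797, 45509 and 41386 against 36699, 38028 and 36591. The lowest place went to Pttg1, which encodes securin, the inhibitor of separase. Its span end had rank 87742 and 84754 in WT replicates 1 and 3, 88882 in KO replicate 3, and no ranked interval in the other 3 libraries.

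The level of Pttg1 at its span end did not describe its promoter. The RefSeq promoter entry of Pttg1 (chr11:43425932-43426231, minus strand) lies more than 1000 bp inside the higher end of the annotated span (chromosome 11, 43420244 to 43427463), outside the scored window. The best interval over that entry held rank 814, 615 and 497 in WT and 624, 1655 and 606 in KO, levels like those of Kif2c. In the test over all regions this site had a gain of -0.44 ± 0.90 (SE, n = 3 against 3, limma adjusted p = 0.826).

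**Figure D3:**
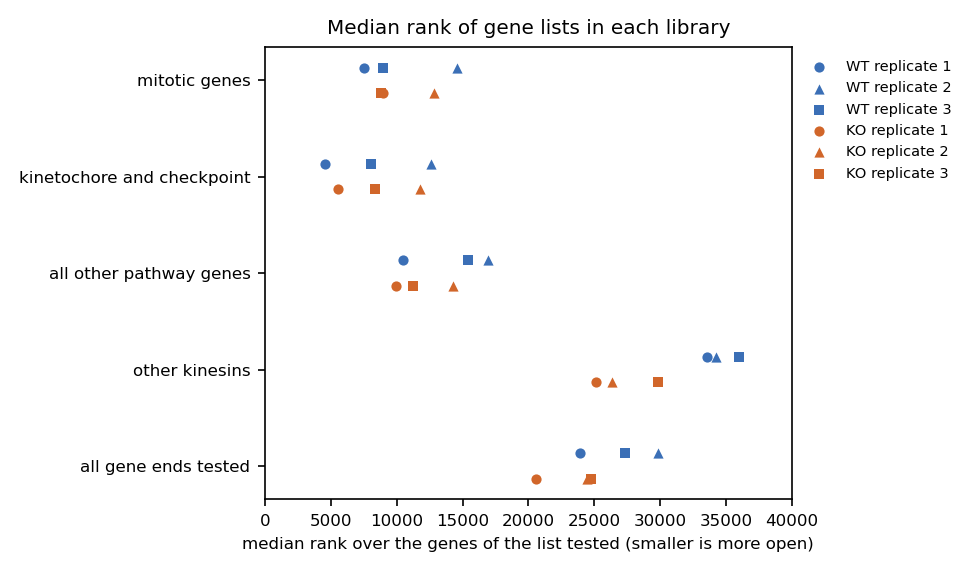
Median rank over the genes tested of 5 gene lists in each library (smaller is more open), WT in blue and KO in orange. The mitotic genes, the kinetochore genes and the other pathway genes lie to the left of all gene ends in all 6 libraries, and the other kinesins lie to the right of them.

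The comparison of genotypes asked whether loss of Stag2 moved these ends up or down the lists. It is given as a gain, the mean −log2 rank in KO minus that in WT, so that +1 is a rank better by a factor of 2. No end of the 42 genes was called in either direction (limma over all gene ends, smallest adjusted p = 0.335 at Top2a). Of all 14286 ends, 3 were called higher (0.021%) and 7 lower (0.049%), together 0.07%. At an unadjusted p below 0.05, 1 of the 42 was higher (10.5% of all ends) and 2 were lower (2.2% of all ends). The libraries of the genotypes did not overlap for 3 members with better ranks in KO (Kif14, Smc2 and Prc1, against 15.2% of all ends) and for 2 with worse ranks (Kif18b and Espl1, against 2.06% of all ends). The median gain of the 42 was 0.0043, with 22 positive and 20 negative, while that of all gene ends was 0.21, with 68.9% positive. Without 1 library the median of the 42 ran from -0.23 to 0.23, and that of all ends from 0.12 to 0.31. The median of the 42 stayed below that of all ends in each such fit. When ranks were taken among gene ends only, the median of all ends was 0.020 and that of the 42 was -0.14, so the distance between them went from -0.21 to -0.16. That distance was 0.25 after adjustment for the gene-end share of each library, a share that did not overlap between genotypes. The share is nearly collinear with genotype, so gains adjusted for it, here and below, are poorly determined. Where the median gain of a group is followed by a value in brackets, that value is from a setting that reversed its sign. Leaving out 1 library also reversed some of these signs, with ranges given in the closing section on processing.

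**Figure D4:**
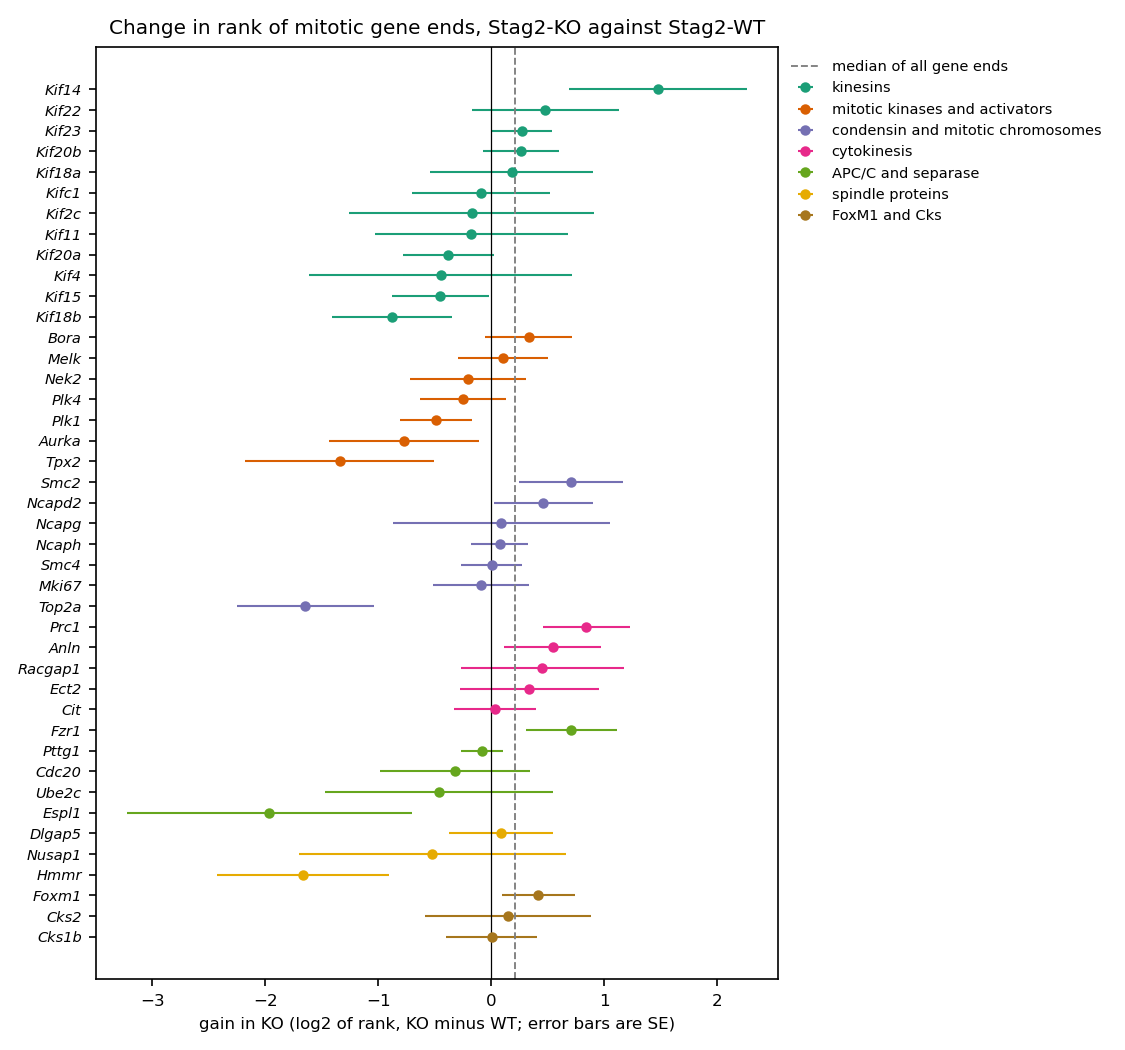
Gain in KO for each of the 42 gene ends (log2 of rank, KO minus WT, with SE from limma, n = 3 per group), coloured by group. The solid line is 0 and the dashed line the median of all gene ends, 0.21. Gains run from -1.96 at Espl1 to 1.48 at Kif14, and none was called.

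Kinesins carry chromosomes and slide or destroy microtubules. The 12 kinesin genes had a median gain of -0.13 (0.55 when adjusted for the gene-end share), with 5 positive and 7 negative and none called. Kif14, which acts with citron kinase in cytokinesis, held rank 2924, 3552 and 4117 in WT and 713, 2506 and 1109 in KO. Each KO library ranked it better than every WT library, and the gain was 1.48 ± 0.79 (SE, n = 3 against 3, limma adjusted p = 0.425). Kif18b, a depolymerising kinesin at the tips of astral microtubules, held rank 3333, 6571 and 7844 in WT and 12300, 10322 and 8404 in KO. Here every KO library was below every WT library, with a gain of -0.88 ± 0.53 (SE, n = 3 against 3, limma adjusted p = 0.479). Kif15, which backs up Kif11 in holding the spindle poles apart, held rank 9163, 14843 and 10693 in WT and 21138, 16184 and 10830 in KO, and the groups overlapped. Gains of the other 9 kinesins, Kif2c, Kif4, Kif11, Kif18a, Kif20a, Kif20b, Kif22, Kif23 and Kifc1, lay between -0.45 and 0.48.

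Among the mitotic kinases and activators the median gain was -0.25, with 2 of 7 positive and none called. Tpx2, the spindle activator of Aurora A, held rank 704, 1767 and 1062 in WT and 3297, 4737 and 1378 in KO. Its gain was -1.34 ± 0.84 (SE, n = 3 against 3, limma adjusted p = 0.493). KO replicate 3 lay inside the WT range, though below WT replicate 3. Aurka, the gene of Aurora A itself, had rank 1653, 5067 and 2948 in WT and 5180, 5382 and 4426 in KO. The WT libraries spread over a wide range that reached the narrow KO range. Plk1, the kinase of mitotic entry, was less open, with rank 17742, 35592 and 21763 in WT and 38983, 32808 and 29676 in KO. Its gain was -0.49 ± 0.32 (SE, n = 3 against 3, limma adjusted p = 0.507). Nek2, Plk4, Melk and Bora, which encode a centrosome kinase, the centriole duplication kinase, a further mitotic kinase and the Aurora A cofactor that activates Plk1, had gains from -0.25 to 0.33.

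Condensin and chromosome genes had a median gain of 0.08 (-0.09 when ranked among gene ends), with 5 of 7 positive and none called. Smc2, an ATPase subunit of both condensins, held rank 11260, 11446 and 12294 in WT and 7062, 5786 and 8899 in KO. The groups did not overlap, and the gain was 0.71 ± 0.46 (SE, n = 3 against 3, limma adjusted p = 0.506). Its partner Smc4 had a gain of 0.0034 with a 95% interval from -0.57 to 0.58. Ncapd2, a regulatory subunit of condensin I, held rank 13942, 23384 and 15921 in WT and 7439, 18424 and 14506 in KO, and the groups overlapped. Ncapg and Ncaph, of the same complex, had gains of 0.09 and 0.08, and Mki67, which coats mitotic chromosomes, -0.09.

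Top2a, the topoisomerase that untangles mitotic chromosomes, had the smallest p of the 42. Its end held rank 2791, 12217 and 5712 in WT and 24226, 28726 and 8561 in KO. KO replicates 1 and 2 ranked it below every WT library, while KO replicate 3 lay inside the WT range, though below WT replicate 3. The gain was -1.64 ± 0.61 (SE, n = 3 against 3), with an unadjusted p of 0.0168 that did not pass (limma adjusted p = 0.335). The strongest summit lay 206 to 226 bp upstream of the span end in all 6 libraries, inside the promoter printed above, with a fold by the authors' peak caller of 22.5, 26.3 and 23.3 in WT and 14.4, 17.8 and 21.0 in KO. A weaker summit 190 to 199 bp inside the gene had folds of 4.94, 9.81 and 7.07 in WT and 10.8, 16.6 and 6.46 in KO, so KO replicates 1 and 2 were low at the first summit and high at the second. Folds depend on the depth of a list, and serve here only to describe the interval.

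Cytokinesis genes had a median gain of 0.45 (-0.91 when adjusted for the gene-end share), with 5 of 5 positive, against 68.9% of all ends, and none called. Prc1, which bundles the microtubules of the spindle midzone, held rank 16972, 28311 and 20644 in WT and 9290, 13345 and 13929 in KO. All KO libraries ranked it better than all WT libraries, and the gain was 0.84 ± 0.38 (SE, n = 3 against 3, unadjusted p = 0.0450, limma adjusted p = 0.384). Anln, the actin-binding anillin of the contractile ring, held rank 16981, 19957 and 24946 in WT and 8305, 13436 and 24474 in KO. Racgap1, a subunit of centralspindlin, held rank 2926, 3060 and 6156 in WT and 3342, 1436 and 4477 in KO. In both genes the groups overlapped. Ect2, the activator of RhoA in the ring, had a gain of 0.34, and Cit, the citron kinase gene, 0.03.

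Genes of the APC/C and of separase had a median gain of -0.32 (1.14 when adjusted for the gene-end share), with 1 of 5 positive and none called. Espl1 held rank 98, 100 and 94 in WT and 1420, 247 and 156 in KO. The WT ranks were nearly equal, every KO library ranked it worse, and KO replicate 1 was lowest. The gain was -1.96 ± 1.26 (SE, n = 3 against 3, limma adjusted p = 0.501), with a 95% interval from -4.65 to 0.73. The fold of this interval, as deposited, was 31.2, 46.22 and 35.6 in WT and 31.8, 46.15 and 34.9 in KO, and was nearly equal in WT and KO libraries of the same number. Fzr1, the gene of the APC/C activator Cdh1 of G1 and resting cells, held rank 17012, 24310 and 19227 in WT and 8607, 11688 and 18102 in KO. The groups overlapped, with a gain of 0.71 ± 0.40 (SE, n = 3 against 3, limma adjusted p = 0.453). The gene of the mitotic activator, Cdc20, held rank 2171, 7716 and 4310 in WT and 4575, 8176 and 3754 in KO, with overlapping groups. Ube2c, the ubiquitin-conjugating enzyme of the APC/C, named after its values were seen, was among the most open, at 333, 1870 and 717 in WT and 741, 2315 and 681 in KO.

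The 3 spindle proteins had a median gain of -0.52 (2.34 when adjusted for the gene-end share), with 1 positive and none called. Hmmr, a microtubule-binding hyaluronan receptor, held rank 1750, 14880 and 4435 in WT and 25100, 26094 and 5642 in KO. As at Top2a, KO replicates 1 and 2 were below every WT library and KO replicate 3 was inside the WT range, though below WT replicate 3. The gain was -1.67 ± 0.76 (SE, n = 3 against 3, unadjusted p = 0.0449, limma adjusted p = 0.384). The shape of the Hmmr interval also differed between libraries. In WT and in KO replicate 3 the summit with the highest fold lay 102 to 110 bp upstream of the Hmmr span end, with folds of 24.1, 24.6 and 24.4 in WT and 23.2 in KO replicate 3. In KO replicates 1 and 2 that summit had a fold of 12.7 and 13.9, and the highest fold, 14.04 and 18.89, was at 456 and 449 bp upstream, inside the span of the neighbouring Nudcd2. The summit at 440 to 444 bp in the WT libraries had a fold of 8.74, 11.9 and 9.76. These are folds of the authors' caller within each list and were not tested.

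Nusap1, which links microtubules to chromosomes, held rank 328, 2796 and 702 in WT and 2278, 3716 and 225 in KO. Its KO libraries held both the best and the worst rank. Dlgap5, a kinetochore fibre protein, had 13317, 11346 and 9293 in WT and 13070, 6734 and 13355 in KO, with a gain of 0.09.

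Foxm1 and the Cks genes had a median gain of 0.15 (-0.14 when ranked by −log10 p), with 3 of 3 positive and none called. Foxm1, the transcription factor of G2/M genes, held rank 31243, 27254 and 20554 in WT and 22228, 17141 and 19289 in KO. Its strand was not known, and the scored end was the higher end of its span (chromosome 6, 128375886), 376 bp from Tex52. These ranks may thus not be those of the Foxm1 promoter. The gain was 0.42 ± 0.32 (SE, n = 3 against 3, limma adjusted p = 0.577). Cks1b and Cks2 encode small proteins that dock CDKs on their substrates. Cks1b held rank 12937, 28367 and 16353 in WT and 18054, 25127 and 13085 in KO, and Cks2 held 2348, 8157 and 3379 against 2382, 7858 and 2529. For both Cks genes the ranges of the genotypes overlapped.

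Read within replicate numbers, KO against the WT library of the same number, 9 of the 42 genes ranked better in KO at all 3 numbers (40.2% of all ends). They were Kif14, Kif23, Bora, Smc2, Ncapd2, Prc1, Anln, Fzr1 and Foxm1. Another 7 genes, Kif15, Kif18b, Aurka, Tpx2, Top2a, Espl1 and Hmmr, ranked worse in KO at all 3 numbers (10.1% of all ends), also where the ranges of the groups overlapped. With the number as a block none was called, the smallest limma adjusted p being 0.118 at Prc1 and 0.120 at Top2a. At an unadjusted p below 0.05 that fit had 4 of the 42 higher and 3 lower, beside 3072 higher and 637 lower of all 14286 ends.

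Ranks also differed by replicate number within a genotype. Among the 41 genes with an interval in all libraries, WT replicate 2 had the worst WT rank in 28 and KO replicate 2 the worst KO rank in 25. Over all such gene ends these shares were 58.1% and 47.2%. Without WT replicate 2, Top2a and Hmmr were called lower (gains -2.18 and -2.47, limma adjusted p = 0.0471 and 0.0483), in a fit that called 0.784% of all ends lower and 1.06% higher. Without KO replicate 3, 3.92% of all ends were called higher and 0.889% lower, but none of the 42.

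Promoter motifs and gains were set side by side for the 32 genes whose promoter entry lay over the scored interval, which leaves out Cit, Kif14, Kif2c and Pttg1. The 22 with a CHR near the start had a median gain of -0.13, with 10 positive and 12 negative. The 10 without a CHR there had a median gain of 0.089, with 6 positive and 4 negative. With the CHR the median rank was 3435, 11832 and 6469 in WT and 7684, 10052 and 6294 in KO. Without it the median was 12952, 16989 and 11622 in WT and 8384, 13114 and 12687 in KO. These are descriptions over the genes, some of which share an interval with a neighbour.

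Other genes of mitosis, a list of 59, gave 56 tested ends with a median gain of 0.19, 38 positive and 18 negative, and none called. The 15 tested APC/C subunits and regulators had a median of 0.21, the 3 genes of condensin II 0.26, the 4 of the chromosomal passenger complex 0.15, the 23 of spindle and centrosome 0.16 and the 11 of abscission 0.21. Spag5, a spindle pole protein, held rank 2934, 2263 and 2945 in WT and 681, 1573 and 1478 in KO, without overlap. Haus5, of the augmin complex, was worse in every KO library, with 887, 2046 and 1387 in WT and 2915, 3277 and 5377 in KO. Both were named after their values were seen, from 5 of the 56 genes without overlap in the better direction (15.2% of all ends) and 1 in the worse (2.06% of all ends). Neither passed (limma adjusted p = 0.511 and 0.420). The 19 tested kinetochore and checkpoint genes had a median of -0.01, and the 23 tested other kinesins 0.29.

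Sites inside the genes were tested with all 100565 regions that had an interval in at least 3 libraries. There were 114 such regions within the 42 spans and 1000 bp around them, of which 62 lay away from either end, in 24 of the genes and most in Cit, with 9. No region of the 114 was called (limma, smallest adjusted p = 0.231), where 0.0119% of all regions were called higher and 0.00895% lower. At an unadjusted p below 0.05, 2 were higher and 3 lower (6.97% and 7.84% of all regions). The genotypes did not overlap for 10 with better ranks in KO (11.4% of all regions) and for 4 with worse ranks (8.17% of all regions). These counts include 42 regions at the scored ends described above. Among the 62 away from either end, 2 were higher and 2 lower at an unadjusted limma p below 0.05. Without overlap there were 7 with better ranks and 2 with worse. The 7 include a site in Aurka, given below, that was ranked in KO libraries alone and so could not overlap.

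A site in Kif14 (chromosome 1, 136491393 to 136492316) had the smallest p among them. It held rank 47869 and 65175 in WT replicates 2 and 3, had no ranked interval in WT replicate 1, and held 12022, 14838 and 31158 in KO. The gain was 1.94 ± 0.43 (SE, n = 3 against 3, limma adjusted p = 0.231), in the same direction as that of the scored end of Kif14. In Anln, a narrow site at 22340348 to 22340710 of chromosome 9 ranked 8498, 3054 and 6707 in WT and 1610, 1751 and 2504 in KO. The groups did not overlap, with a gain of 1.54 ± 0.62 (SE, n = 3 against 3, limma adjusted p = 0.306). Inside Kif23 (chromosome 9, 61933135 to 61933686), a site was ranked 11168, 34847 and 13791 in the WT libraries. It held 85107 and 40503 in KO replicates 2 and 3 and was not ranked in KO replicate 1, a gain of -2.00 ± 0.49 (SE, n = 3 against 3, limma adjusted p = 0.255). Kif11 (chromosome 19, 37418365 to 37418782) and Cit (chromosome 5, 115910439 to 115910821) each held a site with overlapping groups and a gain of -0.68 and -0.65. A weak site in Aurka (chromosome 2, 172360263 to 172360527) was ranked in the 3 KO libraries, at 81763 to 86455, and in no WT library. It met the requirement of 3 libraries through KO alone, so its lack of overlap was fixed in advance and is no result. An unranked library was given the rank 1 past the end of the list, so these gains depend on the length of the list.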

How the data were processed

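ATAC-seq peak lists of 3 Stag2-WT and 3 Stag2-KO libraries were used, 1 per sample and not pooled. The submitters' processing notes name mm10 and DiffBind, with aligner and peak caller not given in the sources used here. Each deposited list holds, per peak, a fold over local background (a ratio), a −log10 p-value and q-value, a display score that was not used, and a summit position, all made by the authors. The names of the deposited lists record trimming, duplicate removal, removal of mitochondrial reads, a Tn5 step and a p threshold of 0.01. The lowest −log10 p was 3.00 in KO replicate 1, the longest list with 299636 peaks, and 2.00 in the other 5, while no ranked interval was below 10.2. A fold or p-value depends on depth, so they only ranked or described peaks within a list.

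Peaks sharing an interval were reduced to 1 interval with the best fold, and the 100000 intervals of highest fold per library were ranked (100001 where none). Gene spans came from RefSeq GRCm38.p6. Genes with an interval (at least 1 bp in the window) in at least 3 libraries were fitted with limma 3.58.1 in R 4.3.3 on −log2 rank (trend, Benjamini-Hochberg over all ends, threshold 0.05), without a block. Regions were intervals of all lists merged where they overlapped, fitted likewise. Background coverage is the smallest Poisson mean that reproduced fold and p of sampled peaks. Python 3.11.15, NumPy 2.4.6, pandas 2.3.3, SciPy 1.17.1 and matplotlib 3.10.9 were used. The fit was also run on simulated ends with independent noise of equal spread. The real ends differ in spread, so that run does not give the power of the fit here.

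Same-numbered libraries deviated together from their group means over gene ends (Pearson r of 0.18, 0.73 and 0.47 for numbers 1, 2 and 3), which meets the rule used here (over 0.1 in every pair), so the numbers were taken to pair the samples. The pairing comes from these data and the titles and is uncertain, since WT replicate 1 correlated better with KO replicate 3 (0.50) than with KO replicate 1. Errors and p-values printed for single genes are from the fit without the pairing, unless the block is named. With the block the SE was 0.23 at Prc1 and 0.48 at Kif14, against 0.38 and 0.79 without it. Values are printed for the 3 members per group with the smallest p, the 3 best and 3 worst mean ranks, members missing from a library and, chosen after their values were seen, some others. The members and lists were chosen with earlier results of these data known. The alternatives covered the ranking measure, list length, window, summit position, a q-value minimum, rank among gene ends, the interval requirement, the 5′ end only, the gene-end share, region merging, a replicate block and leaving out each library.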

Additional observations from a re-analysis of the deposited data

How the results depend on the processing

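Under every alternative but one, none of the 42 ends was called. Without WT replicate 2, 2 were called lower, and leave-one-out fits gave 0 to 2. The replicate block called 0 of the 42 in either direction and 2 higher and 7 lower of all ends, with the same median gain of 0.0043, and this pairing changed no other call. No region of the 42 genes was called with or without any library.

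Counts over all gene ends depended on the settings, against 3 higher and 7 lower. Ranking by −log10 p gave 5 higher, lists of 140000 gave 1 higher, and ranks among gene ends gave 40 higher and 12 lower. An interval in at least 1 library gave 0 higher and 2 lower, as did the 5′ end only, and the gene-end share as covariate gave 1 higher and 0 lower. Leaving out 1 library gave 0 to 560 higher and 1 to 127 lower. A minimum −log10 q of 2 removed no interval from the ranked lists.

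The median gain of all ends was 0.020 with ranks among gene ends and -0.044 with the share, and that of the kinases ran from -0.60 to -0.12 without 1 library. With the share, which is nearly collinear with genotype, group medians were 0.55 (kinesins), -0.91 (cytokinesis), 1.14 (APC/C), 2.34 (spindle proteins) and 1.26 (Foxm1 and Cks). Gains that changed sign with it were 0.89 (Kif15), 0.35 (Kif18b), -0.11 (Kif23), 1.77 (Tpx2), -0.31 (Smc2), -0.14 (Ncapd2), 1.505 (Top2a), -1.30 (Racgap1), -1.59 (Anln), 1.14 (Cdc20), -1.16 (Fzr1), 0.14 (Pttg1), 1.47 (Espl1), 6.70 (Nusap1), -1.51 (Dlgap5) and 2.34 (Hmmr), and at the inner sites -0.49 (Kif14), 0.64 (Kif11) and 0.22 (Cit). Ranking by −log10 p reversed Kif4 (0.50), Dlgap5 (-0.028), Cks1b (-0.83) and Cks2 (-0.14), and ranks among gene ends reversed Ncaph (-0.092), Dlgap5 (-0.061) and Cks1b (-0.18). Without 1 library the gain ran from -1.30 to 0.31 for Kif4, -0.76 to 0.15 for Cdc20, -1.75 to 0.27 for Nusap1, -0.24 to 0.26 for Dlgap5, -0.53 to 0.36 for Kif2c, -0.032 to 0.23 for Ncaph, -0.32 to 0.25 for Cks1b, -0.36 to 0.71 for Cks2 and -0.023 to 0.80 for Racgap1. Of 462 such gains over 26 genes, 420 kept direction and call, 40 reversed and 2 passed the threshold, and the cause of these changes was not tested. Read depth is not in the lists, so no interval for counting error could be given.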

Other observations

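RefSeq promoter entries and span ends did not always mark the same site. Of the 38 entries, 35 had a ranked interval in all 6 libraries and 3 had none in any. The 3 lay inside the annotated spans, in Kif14 (chromosome 1, 136467598 to 136467897), Kif2c (chromosome 4, 117178723 to 117179022) and Cit (chromosome 5, 115845406 to 115845705), although the scored ends of these genes held intervals in every library.

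Levels of related genes were read from the same lists. The median rank of the other kinesins was 33548, 34267 and 36034 in WT and 25121, 26356 and 29861 in KO, with better medians in KO at all 3 numbers, as for all gene ends. Kinetochore and checkpoint genes had 4589, 12590 and 8063 in WT and 5550, 11795 and 8364 in KO, with replicate 2 worst in each genotype, as for the 42 genes. These lists share no gene, and no test was made between them.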
